A study of Rattus norvegicus with 8 samples.

Results

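Fc gamma receptors and complement genes were followed in the rat hippocampus by 9 chosen genes, of which 8 had probes on the array. The members were the Fc gamma receptor genes Fcgr2b, Fcgr1a and Fcgr2a, the shared receptor chain gene Fcer1g, the C1q chain genes C1qa, C1qb and C1qc, and the complement components C3 and C4a. All non-control probes whose RefSeq accession belonged to a member in the GRCr8 reference table were taken, which gave 10 probes of 41012 and 8 genes of 12206 named genes. Fcer1g was matched by no probe and is not analysed here. The group was chosen by the measured difference between the diets, in that it was assembled around Fcgr2b with its call in that contrast known, so the differences of the members are given with their errors as a description and without p-values.

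Immunoglobulin G bound to a target is recognised by Fc gamma receptors, which in the brain are carried mainly by microglia and by macrophages at its borders. Activating receptors signal through an immunoreceptor tyrosine-based activation motif, and Fcgr2b counters them through an inhibitory motif. Complement is a protein cascade in which C1q starts the classical route, C4 and C3 are cleaved in turn, and the fragments tag material for uptake. In the rodent brain C1q comes mostly from microglia, and in mice C1q and C3 take part in the removal of synapses.

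Gene expression was measured on 1-colour Agilent arrays, 1 array per rat, in total hippocampal RNA. The 4 CCH rats were male Wistar rats fed the standard CE-2 feed to which 0.1% coral calcium hydride (CCH) powder had been added. The 4 control rats were male Wistar rats on CE-2 feed alone. Feeding began at 6 weeks of age and the rats were killed at 8 weeks. The CCH arrays shared one slide and scan and the control arrays another, so the effect of the diet cannot be told apart from that of the slide or scan. The samples' free-text descriptions name a lesion model with drug injections, which contradicts the titles and treatment labels used here to form the groups. A level is the log2 processed signal minus the 75th percentile of its array, so that 0 is the 75th percentile. That percentile ran from 642 to 882 signal units on the CCH arrays and from 563 to 700 on the control arrays, the share of spots well above background was 76.3% to 79.9%, and having only 8 arrays limits precision. Of 9 tested neuronal markers all 9 were well above background on all 8 arrays, among them the CA1 gene Wfs1 and the dentate gene Prox1, and so were all 14 tested microglial markers.

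All 10 member probes were well above background on all 8 arrays and passed the detection filter. All 10 were lower in CCH than in control by their means, and the median log2 difference was -0.20, against 0.03 over the 31612 tested probes, of which 44.9% were lower. Fcgr2b was the 1 member probe called at an adjusted p under 0.05 (limma, Benjamini-Hochberg over all tested probes), in an array where 0.174% of probes were called and 0.0981% were called lower and 0.0759% higher. The groups did not overlap for 2 member probes, those of Fcgr2b and C3, against 11.3% of all tested probes in either direction of which 4.69% had CCH below control and 6.59% above. The other 8 probes differed by log2 values between -0.26 and -0.03, and their groups overlapped. Since the contrast served to choose the members, these counts are a description.

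**Figure D1:**
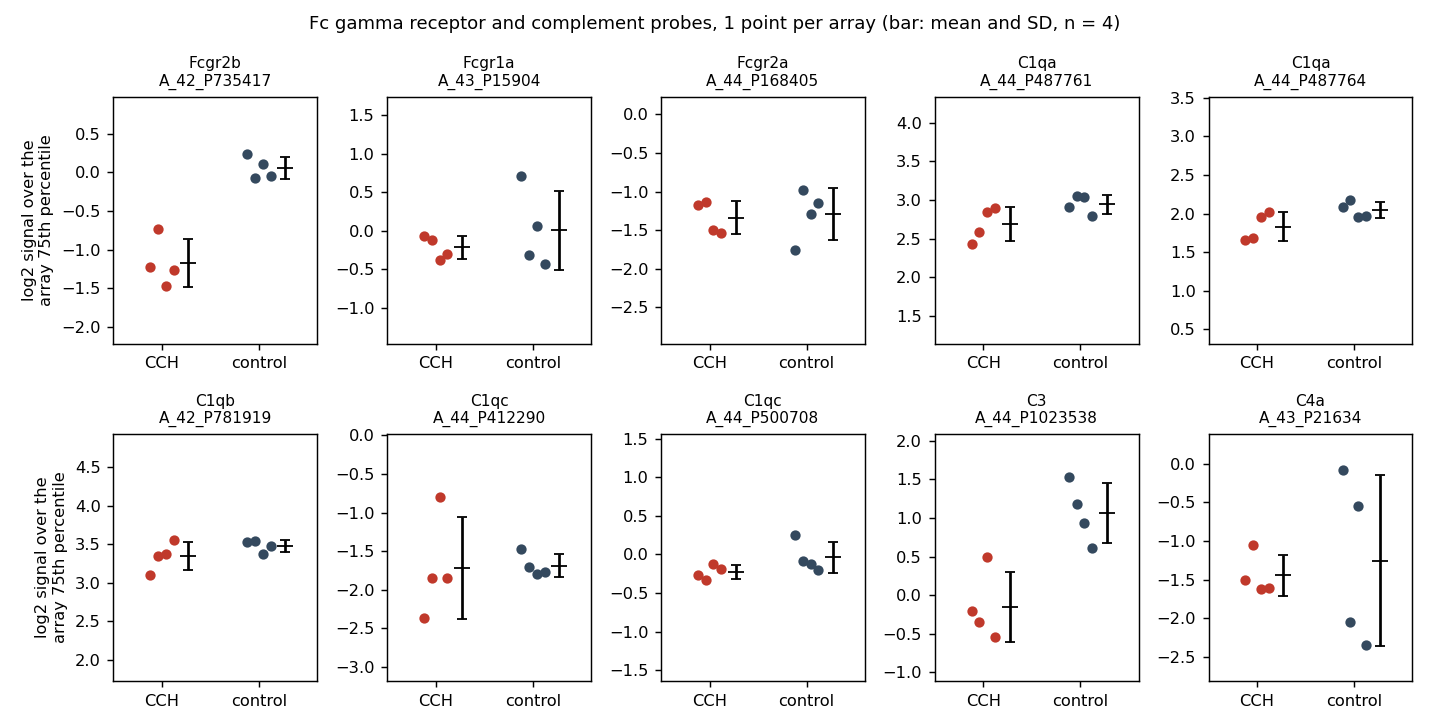
Log2 signal over the array's 75th percentile for each of the 10 member probes, with 1 point per array (CCH left, control right) and the mean with its SD (n = 4) beside the points. Every panel spans the same number of log2 units. The Fcgr2b and C3 points of the 2 groups do not overlap, the C1qa and C1qb points lie close together, and the C4a controls fall into a high pair and a low pair.

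Fcgr2b, the inhibitory receptor, was read by 1 probe (A_42_P735417, accession NM_175756). Its processed signal was 378, 448, 237 and 267 in CCH replicates 1 to 4, against 824, 536, 644 and 563 in control replicates 1 to 4. The levels after scaling were -1.22, -0.74, -1.47 and -1.26 in CCH, against 0.24, -0.07, 0.11 and -0.05 in control. Every CCH array was below every control array, both before and after scaling, and the gap between the highest CCH level and the lowest control level was 0.67. The mean level was -1.17 ± 0.31 in CCH and 0.06 ± 0.14 in control (SD, n = 4 each), a log2 difference of -1.23 ± 0.16 (SE) or 2.35-fold lower in CCH. Among the 31612 tested probes this was the 135th lowest difference. The difference ran from -1.38 to -1.13 when any 1 array was left out. The call held without CCH replicate 1 and was lost without any 1 of the other 7 arrays, as it was with the replicate block, without a detection filter, and with either tissue covariate.

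The activating receptors among the members, Fcgr1a and Fcgr2a, overlapped between the diets. The activating receptor Fcgr3a, not a member, did not overlap, with a gap of only 0.014, and is given below with the other Fc receptors. Fcgr1a encodes the high-affinity receptor that signals through the chain made by Fcer1g. Its level (probe A_43_P15904, NM_001100836) was -0.06, -0.11, -0.37 and -0.29 in CCH replicates 1 to 4, against 0.71, -0.32, 0.06 and -0.43 in control replicates 1 to 4. The CCH values lay inside the range of the controls, and the control spread came from replicate 1, the highest of the 8 arrays. The difference of Fcgr1a was -0.22 ± 0.24 (SE), and 0.02 without control replicate 1. Fcgr2a, which the reference table also lists as Fcgr3 and as Fc gamma receptor III, encodes a low-affinity activating receptor. Its level (probe A_44_P168405, NM_053843) was -1.18, -1.13, -1.50 and -1.54 in CCH, against -1.75, -0.98, -1.29 and -1.14 in control. The groups overlapped over most of their range, with control replicate 1 the lowest array for this probe, and the difference was -0.05 ± 0.18 (SE). Fcgr2b, Fcgr2a and Fcgr3a are near neighbours on one chromosome in the reference table and related in sequence. The probe sequences were not used here, so cross-hybridisation between the receptors was not tested.

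C1q is built from A, B and C chains, whose genes lie side by side on one chromosome, and the groups overlapped on all 5 of its probes. C1qb (probe A_42_P781919, NM_019262) had levels of 3.11, 3.35, 3.38 and 3.55 in CCH replicates 1 to 4, against 3.53, 3.54, 3.38 and 3.47 in control replicates 1 to 4. CCH replicates 1 and 2 stood below all controls and CCH replicate 4 above them all, and the difference was -0.13 ± 0.11 (SE). C1qa was read by 2 probes that gave the same picture. The first (A_44_P487761, NM_001008515) was at 2.43, 2.58, 2.85 and 2.90 in CCH, against 2.91, 3.06, 3.04 and 2.79 in control. The second (A_44_P487764) was at 1.66, 1.69, 1.96 and 2.02 in CCH, against 2.09, 2.17, 1.96 and 1.96 in control. On both probes CCH replicates 1 and 2 were the lowest arrays. CCH replicates 3 and 4 lay within the control range on the first probe and CCH replicate 4 on the second, where CCH replicate 3 fell just short of the lowest control. The differences were -0.26 ± 0.13 and -0.21 ± 0.11 (SE).

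The 2 probes of C1qc (NM_001008524) differed in how far their arrays spread. On A_44_P500708 the levels were -0.27, -0.33, -0.12 and -0.18 in CCH, against 0.25, -0.09, -0.12 and -0.20 in control, a difference of -0.19 ± 0.12 (SE). On A_44_P412290 they were -2.37, -1.85, -0.80 and -1.85 in CCH, against -1.47, -1.71, -1.80 and -1.77 in control, a difference of -0.03 ± 0.29 (SE). The wide CCH spread on the second probe came from replicate 3 at the top and replicate 1 at the bottom, whereas on the first probe those arrays lay close together. Without CCH replicate 1 the second probe stood at 0.19, and without CCH replicate 3 at -0.33, so its direction rests on single arrays. Over the C1q genes no probe separated the diets.

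C3, the component on which all complement routes converge, was lower in CCH by nearly as much as Fcgr2b. Its processed signal (probe A_44_P1023538, NM_016994) was 766, 588, 925 and 439 in CCH replicates 1 to 4, against 2015, 1275, 1139 and 889 in control replicates 1 to 4. The groups met in the raw signal, since CCH replicate 3 read higher than control replicate 4. After scaling the levels were -0.20, -0.35, 0.49 and -0.55 in CCH, against 1.53, 1.18, 0.93 and 0.61 in control. The groups then no longer overlapped, with a gap of 0.12 between CCH replicate 3 and control replicate 4. The mean was -0.15 ± 0.45 in CCH and 1.06 ± 0.39 in control (SD, n = 4 each), a difference of -1.21 ± 0.26 (SE) or 2.32-fold lower in CCH. C3 was not among the called probes, and it was called with normexp background correction at -1.17. Leaving out 1 array gave differences from -1.43 to -1.06.

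C4a encodes complement C4, the component cleaved just before C3 in the classical route, and is one of a pair of C4 genes with C4b. Its level (probe A_43_P21634, NM_031504) was -1.50, -1.05, -1.62 and -1.61 in CCH, against -0.08, -2.04, -0.55 and -2.34 in control. The controls split into a high pair, replicates 1 and 3, and a low pair, replicates 2 and 4, and all 4 CCH arrays lay between the pairs. The mean was -1.44 ± 0.27 in CCH and -1.25 ± 1.11 in control (SD, n = 4 each), and the difference was -0.19 ± 0.49 (SE). It turned to 0.20 without control replicate 1 and to 0.05 without control replicate 3. C4b had no named probe, and how far the C4a probe also reads C4b was not tested.

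RefSeq upstream sequences of the GRCr8 build were available for 5 of the 9 members, namely Fcgr2a, C1qa, C1qb, C3 and C4a. Of these, C3 is shown as the complement gene that was lower in CCH, C1qb and C1qa as neighbours whose groups overlapped, and C4a as the gene that split the controls. Each sequence is the stretch of 250 bases before the annotated start, written 5′ to 3′ along the gene's own strand, and capitals mark letters that match a searched motif on either strand.

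C3, GRCr8 chr9:2201340-2201589, minus strand: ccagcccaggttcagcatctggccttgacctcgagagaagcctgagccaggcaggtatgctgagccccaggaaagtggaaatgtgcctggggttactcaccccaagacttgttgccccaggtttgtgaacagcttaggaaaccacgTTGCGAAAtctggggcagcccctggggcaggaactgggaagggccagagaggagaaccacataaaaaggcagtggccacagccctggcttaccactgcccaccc
C1qb, GRCr8 chr5:154407828-154408077, minus strand: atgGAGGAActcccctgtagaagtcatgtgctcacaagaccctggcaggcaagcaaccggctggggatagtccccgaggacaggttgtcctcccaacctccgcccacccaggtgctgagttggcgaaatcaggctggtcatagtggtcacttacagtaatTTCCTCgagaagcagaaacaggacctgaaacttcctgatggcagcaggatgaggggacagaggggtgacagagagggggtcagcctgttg
C1qa, GRCr8 chr5:154419934-154420183, minus strand: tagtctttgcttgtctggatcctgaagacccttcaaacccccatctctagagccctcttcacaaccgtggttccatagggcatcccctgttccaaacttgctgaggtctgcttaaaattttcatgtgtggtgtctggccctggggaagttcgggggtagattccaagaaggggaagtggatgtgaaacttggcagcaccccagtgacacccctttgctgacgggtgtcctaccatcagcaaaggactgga
C4a, GRCr8 chr20:4010107-4010356, plus strand: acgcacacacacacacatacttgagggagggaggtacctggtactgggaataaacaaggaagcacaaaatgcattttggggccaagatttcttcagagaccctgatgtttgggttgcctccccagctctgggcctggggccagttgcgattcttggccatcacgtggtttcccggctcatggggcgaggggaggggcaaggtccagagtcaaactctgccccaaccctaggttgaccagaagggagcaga

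The motifs searched on both strands were GAGGAA, a core bound by the myeloid factor PU.1, TTGCNNAA for C/EBP factors, and a motif each for NF-kB and for interferon response elements. The capitals in C3 are 1 match to TTGCNNAA, 104 to 97 bases before the start, a motif held by 9.22% of the 33469 upstream windows of the same length. The capitals in C1qb are 2 matches to GAGGAA, 247 to 242 and 90 to 85 bases before the start, the second on the opposite strand, and 23.3% of the windows hold this motif. No matches overlapped. None of these 4 windows held the NF-kB motif, which 1.3% of the windows hold, or the interferon response motif, which 3.41% hold. C1qa and C4a held none of the 4 motifs in these letters. Fcgr2a, not shown, had 2 windows. The first held 2 matches to GAGGAA, 143 to 138 and 102 to 97 bases before the start, and the second none of the 4 motifs. Fcgr2b had no entry in the table.

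The levels of cell type markers on the same arrays put these values beside the makeup of each sample. In bulk RNA, fewer cells of a type and less RNA per cell cannot be told apart. Of 18 microglial markers 14 were tested, and 9 were lower and 5 higher in CCH, with a median difference of -0.12 and no call by limma. At an unadjusted p under 0.05 there were 4 of 14, against 15.4% of all tested probes. For 3 of the 14, Tyrobp, Aif1 and Tmem119, every CCH array was below every control array, against 4.69% of all tested probes. The mean microglial level ran from -0.22 to -0.05 on the CCH arrays and from -0.08 to 0.07 on the control arrays, which overlap. Fcgr2b minus this mean on the same array was -1.03, -0.69, -1.25 and -1.20 in CCH replicates 1 to 4, against 0.17, -0.03, 0.14 and 0.03 in control replicates 1 to 4. The difference between the groups was -1.12, and the groups did not overlap. Fcgr2b minus the mean of the 5 C1q probes ran from -2.92 to -1.83 in CCH and from -1.47 to -1.18 in control, also without overlap. Both means moved over the 8 arrays by less than the gap of 0.67 between the Fcgr2b groups. Their subtraction therefore could not have made the groups overlap. Against the border macrophage list described next, Fcgr2b minus the mean ran from 2.08 to 2.64 in CCH and from 2.49 to 4.46 in control, and the groups overlapped, as they did against the choroid plexus list and the meninges and fibroblast list. The means of these lists spread over the arrays more widely than Fcgr2b itself, which spanned 1.71. Against the astrocyte list, Fcgr2b minus the mean ran from -3.54 to -2.81 in CCH and from -2.26 to -1.73 in control, without overlap. The contrast between lists therefore does not tell in which cell type Fcgr2b was lower. Such within-array differences are not moved by a constant added to an array. C3 minus the C1q mean ran from -1.84 to -0.96 in CCH and from -0.64 to 0.06 in control. C3 minus the microglial mean overlapped by a narrow margin, since CCH replicate 3 was at 0.71 and control replicate 4 at 0.69.

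**Figure D2:**
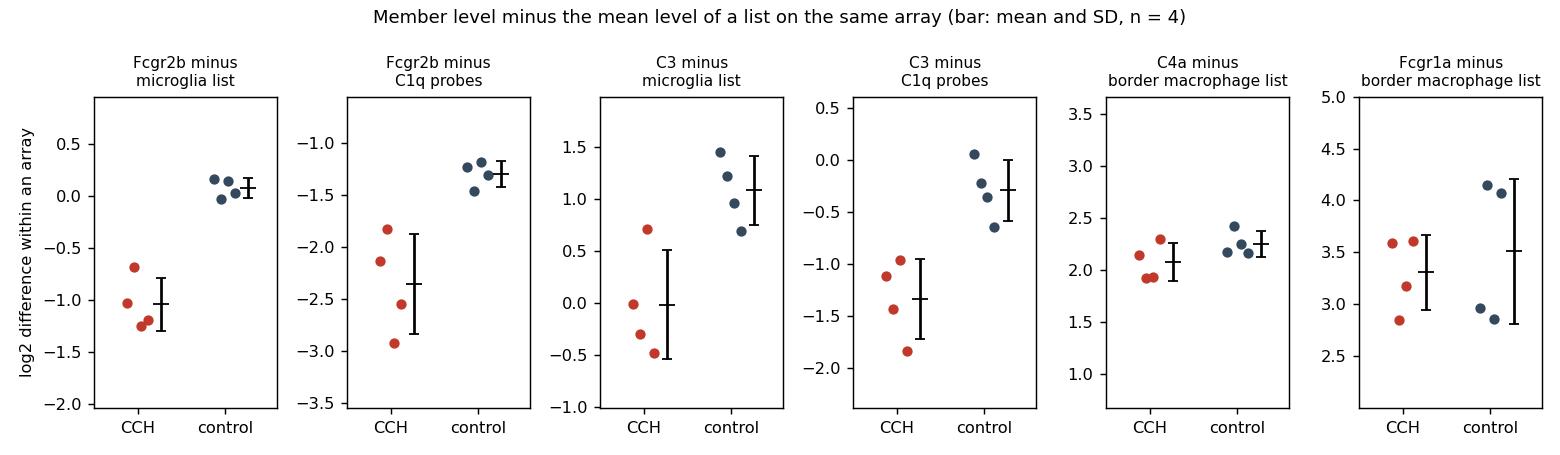
Log2 level of a member minus the mean log2 level of a list on the same array, with 1 point per array (CCH left, control right) and the mean with its SD (n = 4) beside the points. Against the microglial list and the C1q probes the Fcgr2b groups do not overlap, and C4a minus the border macrophage list lies between 1.92 and 2.42 on all 8 arrays.

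C4a went with markers of border macrophages and of meninges and fibroblasts from array to array, most clearly among the controls. Border macrophages sit in the meninges, around vessels and in the choroid plexus. Of 12 border macrophage and monocyte markers 8 were tested, 4 higher and 4 lower in CCH, and 5 of them were well above background on all 8 arrays. None was called by limma, and 1 of 8 had an unadjusted p under 0.05, against 15.4% of all tested probes. That gene, Maf, differed by -0.79 ± 0.17 (SE, limma adjusted p = 0.0854). Every CCH array was below every control array for Maf, against 4.69% of all tested probes. Ccr2 was well above background on 0 arrays. The mean level of the list ran from -3.90 to -2.97 in CCH and from -4.50 to -2.25 in control. C4a minus this mean was 2.15, 1.92, 1.93 and 2.29 in CCH replicates 1 to 4, against 2.17, 2.42, 2.25 and 2.16 in control replicates 1 to 4. It spanned 0.50 over the 8 arrays, whereas C4a itself spanned 2.26. C4a minus the meninges and fibroblast mean spanned 1.64, and C4a minus the choroid plexus mean 5.83. Meninges and fibroblast markers, 12 of 12 tested and 8 of them lower in CCH, had a mean level of 2.67, -0.92, 2.05 and -0.59 on control replicates 1 to 4, the same high and low pairs as C4a, and ran from -0.19 to 1.17 in CCH. With that list as a covariate, chosen after seeing the data, C4a differed by -0.12 ± 0.17 (SE), with a smaller error than the 0.49 found without it. Fcgr1a shared the high value of control replicate 1, and over the 8 arrays, group means taken away, its levels and those of C4a had r = 0.91. With the same covariate Fcgr1a differed by -0.19 ± 0.14 (SE), against an error of 0.24 without it, while Fcgr1a minus the border macrophage mean spanned 1.30 and Fcgr1a itself 1.14.

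The choroid plexus, a tissue that can be carried over at dissection, was uneven between the samples. Of 14 choroid plexus markers 12 were tested and all 12 were lower in CCH by their means, with no call by limma. At an unadjusted p under 0.05 there were 0 of 12, against 15.4% of all tested probes. Of the 12, 8 were well above background on all 8 arrays. Their mean level was 0.70, -3.96, 0.93 and -4.12 on CCH replicates 1 to 4, against 1.45, -1.23, 1.13 and 0.58 on control replicates 1 to 4. With the choroid plexus list as a covariate, chosen after seeing the data, C3 differed by -0.98 ± 0.27 (SE) and Fcgr2b by -1.32 ± 0.18 (SE). Astrocytes, another source of C3, were measured by 9 markers whose mean level ran from 2.07 to 2.26 in CCH and from 1.96 to 2.19 in control. C3 minus the astrocyte mean ran from -2.79 to -1.575 in CCH and from -1.47 to -0.44 in control, without overlap. Neutrophil and blood markers, 6 of 10 tested, ran from -3.04 to -2.56 in CCH and from -3.34 to -2.36 in control, and lymphocyte markers, 5 of 12 tested, from -4.12 to -3.84 in CCH and from -4.39 to -3.70 in control. The T cell receptor chain gene Cd3e was the 1 marker called in any of these lists, at -2.32, -2.53, -2.56 and -2.90 in CCH replicates 1 to 4, against -3.56, -3.71, -3.41 and -3.71 in control replicates 1 to 4, a difference of 1.02 ± 0.14 (SE, limma adjusted p = 0.0432). Of the 5 tested lymphocyte markers 2 were higher and 3 lower in CCH. The related chain genes Cd3g and Cd3d differed by -0.70 ± 0.47 and -0.04 ± 0.10 (SE), with overlap between the groups. The part of Cd3e in the results was not tested. Neuronal markers, 9 of 10 tested, ran from 1.39 to 1.46 in CCH and from 1.29 to 1.54 in control. Oligodendrocyte markers, 10 of 10 tested and all higher in CCH, ran from 3.34 to 3.60 in CCH and from 2.93 to 3.19 in control, so that list separated the groups. None was called by limma, 6 of 10 had an unadjusted p under 0.05, against 15.4% of all tested probes, and 4 had every CCH array above every control array, against 6.59%. The list's part in the results was not tested.

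**Figure D3:**
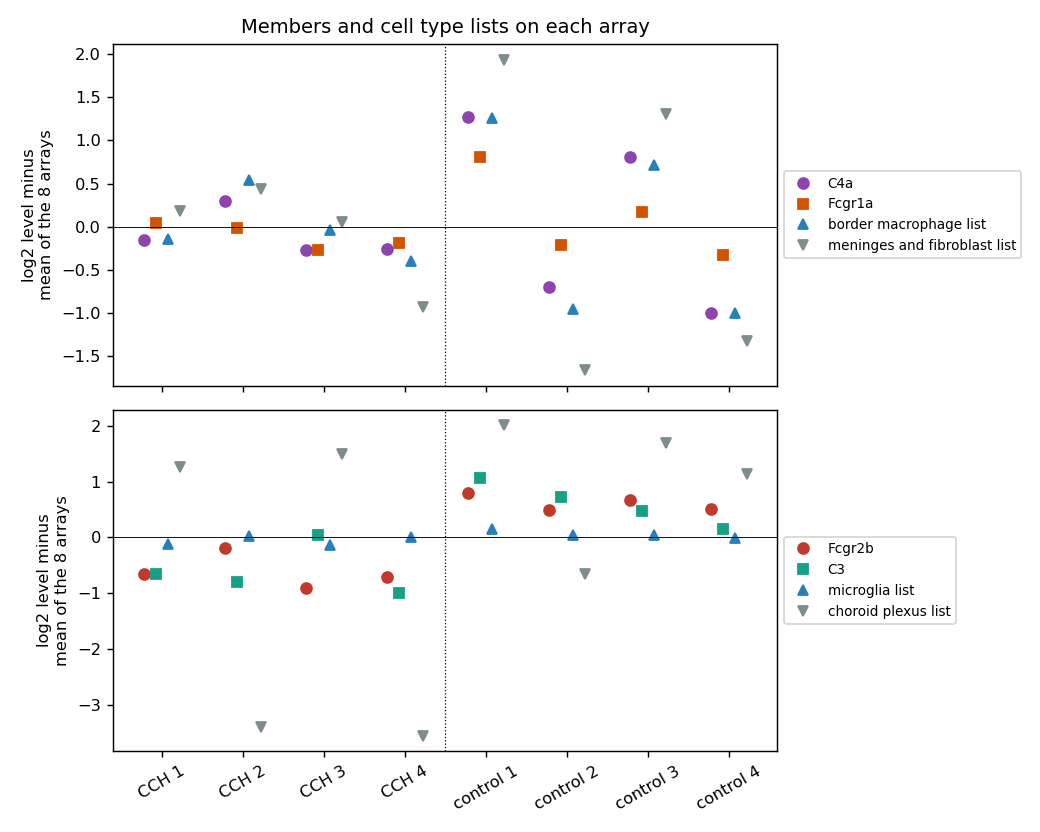
Log2 level of members and mean log2 level of cell type lists on each of the 8 arrays, each shown minus its own mean over the 8 arrays (upper panel: C4a, Fcgr1a and the lists for border macrophages and for meninges and fibroblasts; lower panel: Fcgr2b, C3 and the lists for microglia and choroid plexus). C4a shares the high and low pairs of controls with the 2 lists in its panel. Fcgr2b is below its mean on all CCH arrays, and C3 is below its mean on all CCH arrays except replicate 3, which lies close to it.

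The rest of the Fc receptor and complement pathways was read from 7 lists of other genes. Of 106 listed genes 77 had a named probe and 64 were tested, 27 higher and 37 lower in CCH, with a median log2 difference of -0.05 over the brightest tested probe of each gene. None of the 64 was called by limma over all probes, and 5 (7.81%) had an unadjusted p under 0.05, against 15.4% of all tested probes.

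Among other Fc receptors 5 of 15 were tested and 3 were higher. Fcgr3a, a low-affinity activating receptor, was at -0.47 ± 0.22 (SE, limma adjusted p = 0.354). Its groups did not overlap, with a gap of only 0.014, and 4.69% of all tested probes had CCH below control without overlap. Control replicate 1 was at -1.13 and the other controls lay between -2.176 and -1.935. Fcgr3a was picked with its values in view. Fcer1a, the chain of the immunoglobulin E receptor that binds its ligand, was at -1.28 in CCH replicate 1 and between -8.07 and -6.56 in the other 3 CCH arrays, against -8.90 to -5.80 in control. It was well above background on 3 CCH arrays and 1 control array, and its difference of 1.65 ± 1.39 (SE, adjusted p = 0.628) rested on that 1 CCH array. Fcrl2, an Fc receptor-like gene, was at 0.68 ± 0.32 (SE, adjusted p = 0.359) and the cytosolic antibody receptor Trim21 at 0.55 ± 0.63 (SE, adjusted p = 0.733).

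Signalling genes downstream of Fc receptors were lower for 12 and higher for 5 of 17 tested, with 0 called. At an unadjusted p under 0.05 there were 3 of 17, against 15.4% of all tested probes. The adaptor Tyrobp, which carries an activation motif and is also on the microglial list, had levels of 1.06, 1.36, 1.38 and 1.40 in CCH replicates 1 to 4, against 2.06, 1.64, 1.61 and 1.65 in control replicates 1 to 4. The groups did not overlap, and the difference was -0.44 ± 0.13 (SE, adjusted p = 0.180). Of the 17 genes 2 had every CCH array below every control array, against 4.69% of all tested probes. The exchange factor Vav1 differed by -0.43 ± 0.17 (SE, adjusted p = 0.280) and the adaptor Lat2 by -0.33 ± 0.10 (SE, adjusted p = 0.177). Inpp5d, the phosphatase that Fcgr2b recruits, was at -0.04 on its brightest probe and at -0.06 and 0.20 on the others. The kinases Syk and Lyn, which start signalling at activating receptors, were at 0.13 and 0.12, with 0.37 on the second Lyn probe. Inpp5d, Syk and Lyn were picked with their values in view.

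The complement genes before and after C3 were also without a call. Initiators of the classical and lectin routes were higher for 4 and lower for 4 of 8 tested. By the brightest probe of each gene the largest differences were those of the pentraxin Ptx3 at 0.61 ± 0.31 (SE, adjusted p = 0.394), the ficolin Fcnb at 0.42 ± 0.42 (SE) and the collectin Colec12 at -0.41 ± 0.55 (SE). The lectin route protease Masp1 was at -0.06 ± 0.13 (SE) on its brightest probe. A dimmer Masp1 probe, well above background on 5 of 8 arrays, was at -0.69 ± 0.50 (SE, adjusted p = 0.566). Of the alternative and terminal routes 4 of 11 genes were tested, 3 lower and 1 higher. The terminal component C6 differed by -0.54 ± 0.89 (SE), factor B (Cfb), which forms the C3 convertase of the alternative route, by -0.47 ± 0.38 (SE), and properdin (Cfp), which stabilises that convertase, by 0.20 ± 0.10 (SE, adjusted p = 0.370). Cfb was at -0.70, 0.17, -0.05 and -0.48 in CCH, against 1.02, -0.42, 0.72 and -0.51 in control, with the same high controls as C4a.

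Complement regulators were lower for 10 and higher for 4 of 14 tested, with 0 called. At an unadjusted p under 0.05 there was 1 of 14, against 15.4% of all tested probes. That gene, Cd59b, differed by -0.28 ± 0.08 (SE, limma adjusted p = 0.168). Every CCH array was below every control array for Cd59b, against 4.69% of all tested probes. Cd59b was picked with its values in view. Cd46, a cofactor that inactivates C3b and C4b, differed by -0.48 ± 0.23 (SE, adjusted p = 0.360), C4bpa of the C4b-binding protein by 0.40 ± 0.41 (SE) and vitronectin (Vtn), which blocks the terminal complex, by -0.33 ± 0.46 (SE). Complement receptors were higher for 4 and lower for 3 of 7 tested. The receptors for the fragments of C3 and C5, C3ar1 and C5ar2, differed by -0.42 ± 0.24 and -0.41 ± 0.27 (SE), C5ar2 with 2 arrays per group well above background. Itgb2, the beta chain of the C3 receptors, differed by 0.32 ± 0.58 (SE) and by -0.35 without CCH replicate 1. The C1q-like synaptic proteins were higher for 6 and lower for 3 of 9 tested. By the brightest probe of each gene the largest differences were those of the cerebellins Cbln4 at 0.26 ± 0.29 (SE) and Cbln1 at -0.14 ± 0.53 (SE) and the pentraxin Nptx2 at 0.18 ± 0.22 (SE). C1ql3 was at -0.07 on its brightest probe and at 0.33 and 0.23 on the others.

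**Figure D4:**
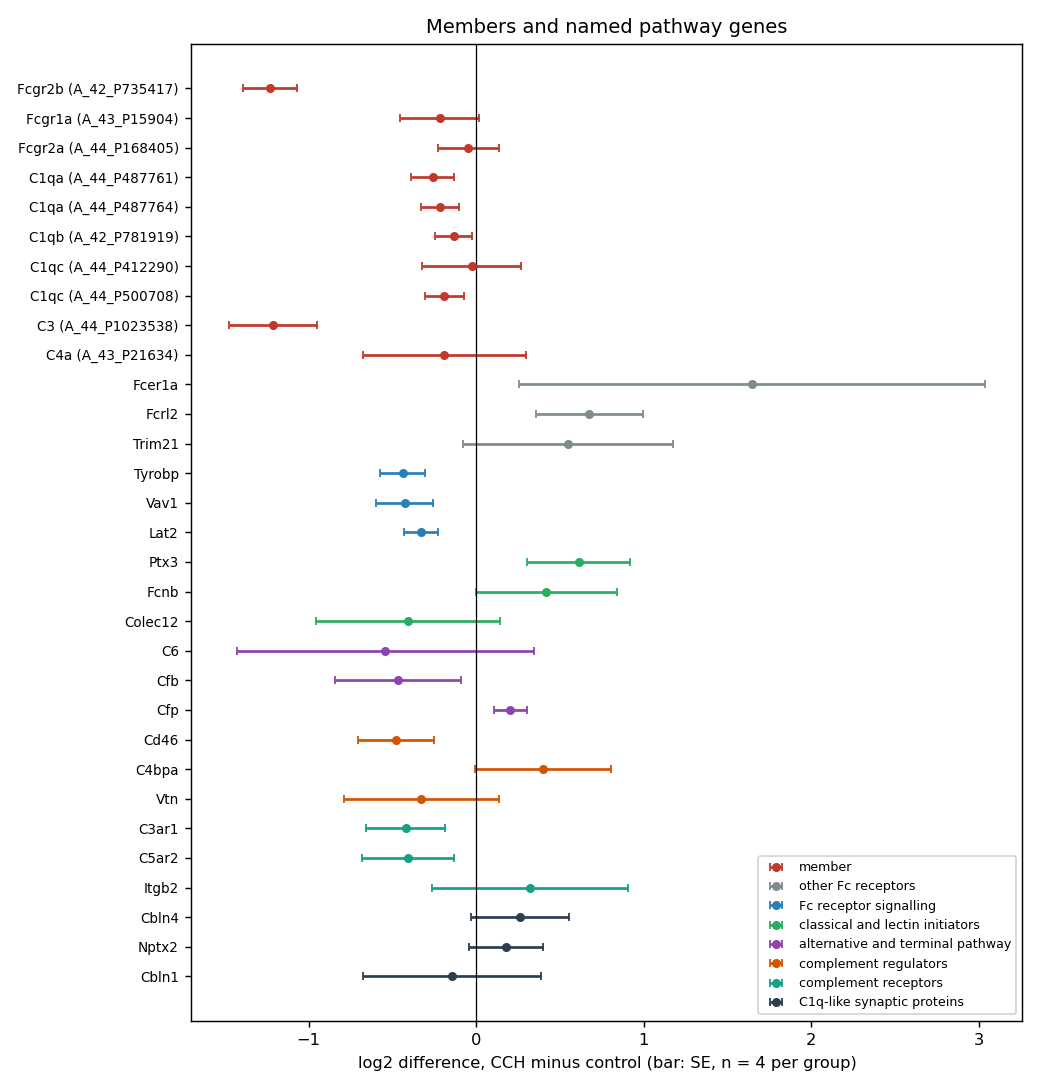
Log2 difference, CCH minus control, with its SE (n = 4 per group) for the 10 member probes and for the named genes of the 7 pathway lists, coloured by list. Fcgr2b and C3 lie at -1.23 and -1.21, the other member probes between -0.26 and -0.03, and Fcer1a has the widest error bar.

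The genes most like a member were sought within the groups, by the correlation of log2 levels over the 8 arrays after each group's mean had been taken away. Over 31542 probes measured on all arrays, Fcgr2b was nearest to the phosphatase gene Ppm1e (r = 0.97), Plxdc2 (0.97), Wdr7 (0.96), the vesicle protein gene Sypl1 (0.95) and Otud6b (0.94), and 33 probes exceeded 0.9. The mean of the C1q probes was nearest to the kinase gene Map2k7 (r = 0.97), Tm2d2 (0.96), the peroxiredoxin gene Prdx5 (0.96), Lysmd3 (0.95) and Lhfpl2 (0.95), and 189 probes exceeded 0.9. No microglial marker of the fixed list was among these 10 genes. With only 5 genes kept per target out of 31542 probes, that absence does not tell how the markers varied with either target. The arrays are the only points, they share scaling and slide, and so many probes give high values over 8 points that the names are a description. Fcgr2b and the C1q mean themselves had r = -0.37, and 73.5% of probes had a higher r with the C1q mean. Among the other members, r with Fcgr2b was 0.60 for C4a (3.79% of probes higher) and 0.56 for Fcgr1a (5.3% higher). It was 0.02 for Fcgr2a, -0.21 for C3 and between -0.51 and -0.03 for the C1q probes.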

How the data were processed

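Per the labels' protocols, Cy3-labelled cRNA from the hippocampal RNA of each of 8 rats was put on 1-colour Agilent arrays. The authors used Agilent Feature Extraction 9.5, per the submitters' processing notes. Per the file headers, its processed signal is an intensity on a linear scale, corrected for background and spatial trend but not scaled between arrays. The series' value table, also deposited, holds the same signal after rounding (largest relative difference 0.00498) and served only as a check. The array grid names the older build rn4. Probes were named by RefSeq accession through a GRCr8 table, which named 37.0% of 41012 probes.

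Levels are log2 signals from which the array's own 75th percentile (control spots left out) was subtracted, averaged per probe without outlier spots. Probes well above background on at least 4 of 8 arrays with at least 3 values per group were tested, 31612 in all, with a two-sided limma test (lmFit, eBayes; limma 3.58.1, R 4.3.3), Benjamini-Hochberg adjustment and a threshold of 0.05, and the procedure was tested on simulated data. No slide or scan block was possible, since each slide held 1 group. Lists used the brightest tested probe of a gene. Members and lists were chosen with earlier results of these data known. Named were all members and, from each pathway list, any called gene and the 3 largest differences of a brightest probe, and the 5 genes most like Fcgr2b and like C1q. The files hold no mean spot signal, so normexp (offset 50) used the median signal. Other alternatives were quantile, median and detected-probe scaling, detection filters, kept outlier spots, a replicate block, eBayes with trend, array weights, leaving out each array, and 2 tissue covariates added after seeing the data. The design text gives 8 rats, so each array was taken as 1 rat.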

Additional observations from a re-analysis of the deposited data

Results flagged for a closer look

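Within the groups of 4 arrays, 6 values of named genes stood apart from the other 3 by more than Dixon's 95% critical value for 4 samples (gap over range), among 62 groups checked, and chance gives about 1 in 20. No member probe was among them. Tyrobp was lowest on CCH replicate 1 at 1.06, against 1.36 on the next CCH array, and highest on control replicate 1 at 2.06, against 1.65 on the next control array. Itgb2 on CCH replicate 1 was at 0.073, against -2.42 on the next CCH array. Vav1 on CCH replicate 2 was at -3.5, against -3.77. Trim21 on control replicate 4 was at -8.93, against -6.26, and Cbln1 on control replicate 3 at -0.552, against -2.72.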

How the results depend on the processing

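The number of called member probes was also 1 with array weights, detection on all 8 arrays, eBayes trend and robust settings, kept outlier spots and the 3 other scalings, was 2 with normexp background correction, where C3 joined at -1.17, and 0 with no detection filter, the replicate block, the choroid plexus covariate and the meninges and fibroblast covariate. With 1 array left out it ran from 0 to 1. Over the whole array 55 probes were called, and 1293 were called with array weights, 246 with normexp, 220 with eBayes trend and robust settings, 209 with detection on all 8 arrays, 29 with no detection filter, 21 with the meninges and fibroblast covariate, 1 with the choroid plexus covariate and 0 with the replicate block. With 1 array left out the count ran from 0 to 708, with 708 reached without CCH replicate 1. The other pathway genes gave 0 calls in every setting run. Fcgr2b stayed between -1.38 and -1.09 and C3 between -1.43 and -0.98 in all 20 alternatives. Of the 10 member probes 6 kept their sign throughout. The sign turned for Fcgr1a with 1 array left out (-0.363 to 0.017, the top without control replicate 1), for Fcgr2a with 1 array left out (-0.20 to 0.0565), for C4a with 1 array left out (-0.55 to 0.20) and for C1qc on A_44_P412290 with array weights (0.13), the choroid plexus covariate (0.10) and 1 array left out (-0.33 to 0.19). Of 21 named pathway genes 11 kept their sign. With normexp Trim21 was at -0.16, Ptx3 at -0.0278, Fcnb at -0.11, C4bpa at -0.17 and Cbln4 at -0.0862, and with array weights Itgb2 was at -0.26. With 1 array left out Trim21 ran from -0.17 to 0.83, Colec12 from -0.80 to 0.0281, C6 from -1.15 to 0.0736, C4bpa from -0.0334 to 0.64, Vtn from -0.64 to 0.14, Itgb2 from -0.35 to 0.58 and Cbln1 from -0.40 to 0.46. The cause of these changes was not tested. Whether the replicate numbers pair the rats could not be settled from the arrays, since weak correlations do not exclude pairing. Deviations of same-numbered arrays correlated at 0.146, 0.0796, -0.0051 and 0.246. Of 4 CCH arrays 1 correlated best with its own number, and of 4 control arrays 2. Slide as a block was not run, because it equals the diet.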
